A study of Mus musculus with 17 samples.

Results

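The G2 and mitosis genes are 50 mouse genes whose transcripts peak late in the cell cycle, and they were followed here over 17 arrays of sorted hematopoietic stem cells (HSCs). They were taken by symbol from a list, with no threshold on their values, and the list was made with earlier results of these data known. A gene was taken where a probe set, the group of short probes that reads out 1 transcript, was annotated to that symbol alone, and the probe set with the highest mean log2 value over all arrays stood for it. This found 48 of the 50 genes, among 18194 genes measured in the same way. Ccnb1 was not found by this rule, and Hjurp was read only by probe sets annotated to several genes; neither has values here. The 48 genes held 119 probe sets, and 37 of them had more than 1. All 48 entered the tests, which covered 16785 genes above the lowest deposited value on at least 1 array.

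The arrays came from HSCs of mouse fetal liver at E15.5 (3 arrays) and of adult mice at day 7 (3 control and 3 knockout arrays) or day 21 (4 and 4 arrays) after injection of pIpC, a double-stranded RNA mimic used to switch on an inducible Cre. Adult cells were sorted without lineage markers or CD48 and with Sca-1, c-Kit and CD150, and fetal cells also with low Mac-1, which adult sorting excludes as a lineage marker. The adult samples titled as C/EBPa knockout carry a genotype field, and the series a design text, that name instead a knock-in of PU.1 (PU.1ki/ki), so the labels conflict; groups follow the titles. Control mice are labelled wild type and received pIpC as well; the labels give fetal samples no genotype and no injection, and name no Cre driver, age or number of animals per array. Stage, tissue and pIpC exposure therefore cannot be told apart between fetal and adult groups. The labels do not say that arrays of a group came from separate animals, so the p-values rest on a spread between samples that may be technical.

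Cells that leave G1 build up the proteins of G2 and mitosis late, under the B-Myb and FOXM1 complexes that act on paired promoter elements. Cyclin A and cyclin B with CDK1 start mitosis, Aurora and checkpoint kinases order it, kinetochores tie chromosomes to the spindle, and the anaphase-promoting complex with CDC20 ends it by marking cyclin B and securin for degradation. Adult HSCs are mostly quiescent and fetal liver HSCs cycle, so transcripts of this kind are widely used as a readout of cycling in HSC populations. In RNA from a bulk of cells, a smaller share of cells in G2 or mitosis and less of the RNA in each such cell cannot be told apart.

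Values are the deposited intensities, on a linear scale with a floor of 16, and differences are on the log2 scale. Intensities of different probe sets have no common scale and are compared only within a gene. Between 20.4% and 25.2% of probe sets per array lay at the floor. Cebpa, the gene named in the titles, read 115 to 532 on the 7 control arrays and 20.7 to 39.8 on the 7 knockout arrays, and neither its day 7 difference of -2.73 (SE 0.55, adjusted p = 0.316) nor its day 21 difference of -2.82 (SE 0.48, adjusted p = 0.0536) passed the limma test. Spi1, which encodes PU.1, was at 0.34 (SE 0.47) on day 7, and its day 21 difference was -0.03 (SE 0.41). No source used here says whether the Cebpa probe set falls within the deleted sequence. All 9 measured genes of a list of HSC and sorting-gate genes, among them Kit, Slamf1 and Procr, were above the floor in all 5 groups. At day 7 their differences were positive for 4 of 9 (all genes 50.0%), and 0 were called (all genes 0% in each direction, limma). For 2 genes all day 7 knockout arrays lay below all day 7 control arrays (all genes 6.39%). At day 21 differences were positive for 1 of 9 (all genes 50.2%) and negative for 8 (median -0.42). None was called at that day (all genes 0.0179% higher and 0% lower, limma). Fgd5, at -2.30 (SE 0.52, adjusted p = 0.144), and Hlf, at -0.65 (SE 0.29, adjusted p = 0.476), were lower at an unadjusted p under 0.05 (all genes 3.95%). In fetal against control HSCs 3 of 9 were positive (all genes 52.0%), and 1 was called, lower (all genes 1.77%). It was Meis1, which fell by 1.19 (SE 0.26, limma adjusted p = 0.0241). The part of these genes in the results was not tested. Of 6 measured genes of a list that the adult gate excludes, 4 had positive differences at day 7 (all genes 50.0%) and 3 at day 21 (all genes 50.2%). In fetal against control HSCs 3 were positive (all genes 52.0%), and 2 were more than 2-fold higher (1434 of all 16785 genes). In these comparisons 0 of the 6 were called. Among them, Cd3e read 16 to 19.7 on all arrays. Cd48 read 16 to 18.8 on day 7 control arrays, 18.6 to 658 on day 21 control arrays, 60.9 to 283 and 90.3 to 308 on knockout arrays and 99.5 to 210 on fetal arrays; its part in the results was not tested.

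The promoters show what many of these genes share in sequence. Windows of 250 bases before the annotated start were taken from RefSeq (GRCm38.p6) for 42 of the 48 measured genes; Aurkb, Ccna2, Cdc25c, Cdca2, Dlgap5 and Tpx2 were not in the table. Searched on both strands were the cell cycle genes homology region (CHR), as TTTGAA or TTCGAA, and the CCAAT box bound by NF-Y, as CCAAT; a CHR and a CCAAT box can share at most 1 base. A CHR was found for 19 of 42 genes (45.2%), against 15.3% of the 13362 tested genes in the table, and a CCAAT box for 32 (76.2%) against 39.2%. At least 2 CCAAT boxes were found for 24 genes (57.1% against 13.7%) and a CHR with a CCAAT box in 1 window for 17 (40.5% against 5.65%). These are matches of letters and no test was made of them. Next come the windows of 7 genes whose values the results turn on. They run 5′ to 3′ on the gene's strand with CHR and CCAAT matches of either strand in capitals.
Mki67: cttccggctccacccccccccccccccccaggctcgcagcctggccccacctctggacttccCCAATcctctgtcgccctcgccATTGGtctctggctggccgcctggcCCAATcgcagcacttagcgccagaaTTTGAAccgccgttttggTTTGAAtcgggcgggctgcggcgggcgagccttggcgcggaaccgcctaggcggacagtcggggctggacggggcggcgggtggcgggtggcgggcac
Cdc20: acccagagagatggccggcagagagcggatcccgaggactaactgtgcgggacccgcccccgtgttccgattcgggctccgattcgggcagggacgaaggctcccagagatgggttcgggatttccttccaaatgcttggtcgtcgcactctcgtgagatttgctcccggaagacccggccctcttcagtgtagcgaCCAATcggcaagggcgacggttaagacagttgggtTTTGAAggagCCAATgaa
Ccnb2: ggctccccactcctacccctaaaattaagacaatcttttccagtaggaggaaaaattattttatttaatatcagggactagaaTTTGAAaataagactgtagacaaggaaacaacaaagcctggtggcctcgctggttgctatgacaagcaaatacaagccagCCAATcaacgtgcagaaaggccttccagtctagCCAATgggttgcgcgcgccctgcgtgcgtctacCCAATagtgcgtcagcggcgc
Kif11: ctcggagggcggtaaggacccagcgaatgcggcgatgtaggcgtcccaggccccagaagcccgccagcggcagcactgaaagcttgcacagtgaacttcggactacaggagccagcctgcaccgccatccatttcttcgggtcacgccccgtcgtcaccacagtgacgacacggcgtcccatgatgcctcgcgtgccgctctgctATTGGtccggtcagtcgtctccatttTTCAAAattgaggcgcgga
Aurka: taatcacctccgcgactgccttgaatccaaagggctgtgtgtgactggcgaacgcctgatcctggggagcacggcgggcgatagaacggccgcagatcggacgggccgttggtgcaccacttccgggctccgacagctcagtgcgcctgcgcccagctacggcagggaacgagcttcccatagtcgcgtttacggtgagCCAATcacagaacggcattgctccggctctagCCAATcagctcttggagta
Tacc3: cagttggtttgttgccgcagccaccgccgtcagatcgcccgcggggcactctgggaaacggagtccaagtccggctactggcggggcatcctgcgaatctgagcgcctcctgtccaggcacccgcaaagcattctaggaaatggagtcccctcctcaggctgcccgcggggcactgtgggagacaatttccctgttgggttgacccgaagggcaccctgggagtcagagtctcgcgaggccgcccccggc
Gas2l3: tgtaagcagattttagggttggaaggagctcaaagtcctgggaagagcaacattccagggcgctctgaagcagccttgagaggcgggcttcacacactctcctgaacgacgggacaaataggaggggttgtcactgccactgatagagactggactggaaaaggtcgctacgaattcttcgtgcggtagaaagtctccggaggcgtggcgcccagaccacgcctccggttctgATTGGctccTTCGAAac
These windows lie at chr7:135716380-135716629 (minus strand), chr4:118437344-118437593 (minus), chr9:70421555-70421804 (minus), chr19:37376132-37376381 (plus), chr2:172370571-172370820 (minus), chr5:33657878-33658127 (plus) and chr10:89443968-89444217 (minus). The window of Cdc20 held CCAAT boxes 53 and 8 bases before the start, and a CHR between them at 18 bases. The window of Mki67 held 2 CHR and 3 CCAAT matches, that of Aurka 2 CCAAT boxes and no CHR, and that of Tacc3 neither motif. Gas2l3, whose differences were negative in the fetal against control and both knockout comparisons but passed no test, held the TTCGAA form and 1 CCAAT box. No match says only that these letters are not in this window.

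The mean log2 intensity over the 48 genes was, by group mean, lowest in the control groups and highest in fetal liver and the day 7 knockout. It was 7.40, 7.47 and 8.02 on the day 7 control arrays and 7.26, 7.76, 7.82 and 8.09 on the day 21 control arrays. Knockout arrays stood at 8.35, 8.55 and 9.01 on day 7 and at 8.08, 7.97, 8.71 and 8.31 on day 21, and fetal arrays at 8.90, 9.00 and 8.80. The 3 fetal arrays and the 3 knockout arrays of day 7 lay above all 7 control arrays, and the knockout arrays of day 21 overlapped their controls. The group mean was 8.90 ± 0.10 (SD, n = 3) in fetal liver and 8.63 ± 0.34 (SD, n = 3) in the day 7 knockout, so these differed by less than the spread of the knockout arrays. By group means, 28 of 48 genes were highest in fetal liver (58.3%, against 27.7% of all genes tested) and 13 in the day 7 knockout (27.1% against 18%). The lowest group was control day 7 for 22 genes (45.8% against 21.9%) and control day 21 for 20 (41.7% against 21.7%). The order did not hold for every gene: Tmpo and Gtse1 were highest in day 21 controls and Gas2l3 in day 7 controls. Ckap5, Gas2l3 and Tmpo were lowest in fetal liver, and Ect2, Lbr and Nek2 in the day 21 knockout. The heat map of the 48 genes shows this spread by gene and array.

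**Figure D1:**
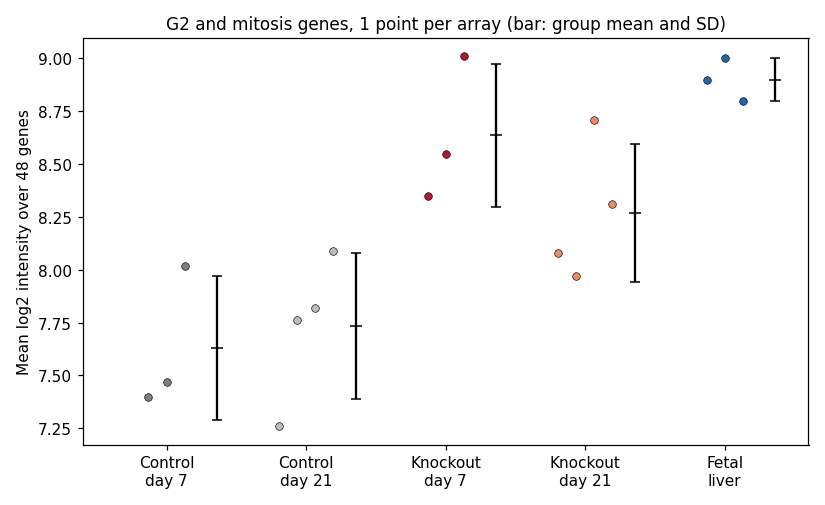
Mean log2 intensity over the 48 G2 and mitosis genes on each array (y axis) by group (x axis), with the group mean and SD as a bar beside the points. The 3 fetal arrays sit between 8.80 and 9.00 and the 7 control arrays between 7.26 and 8.09.

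**Figure D2:**
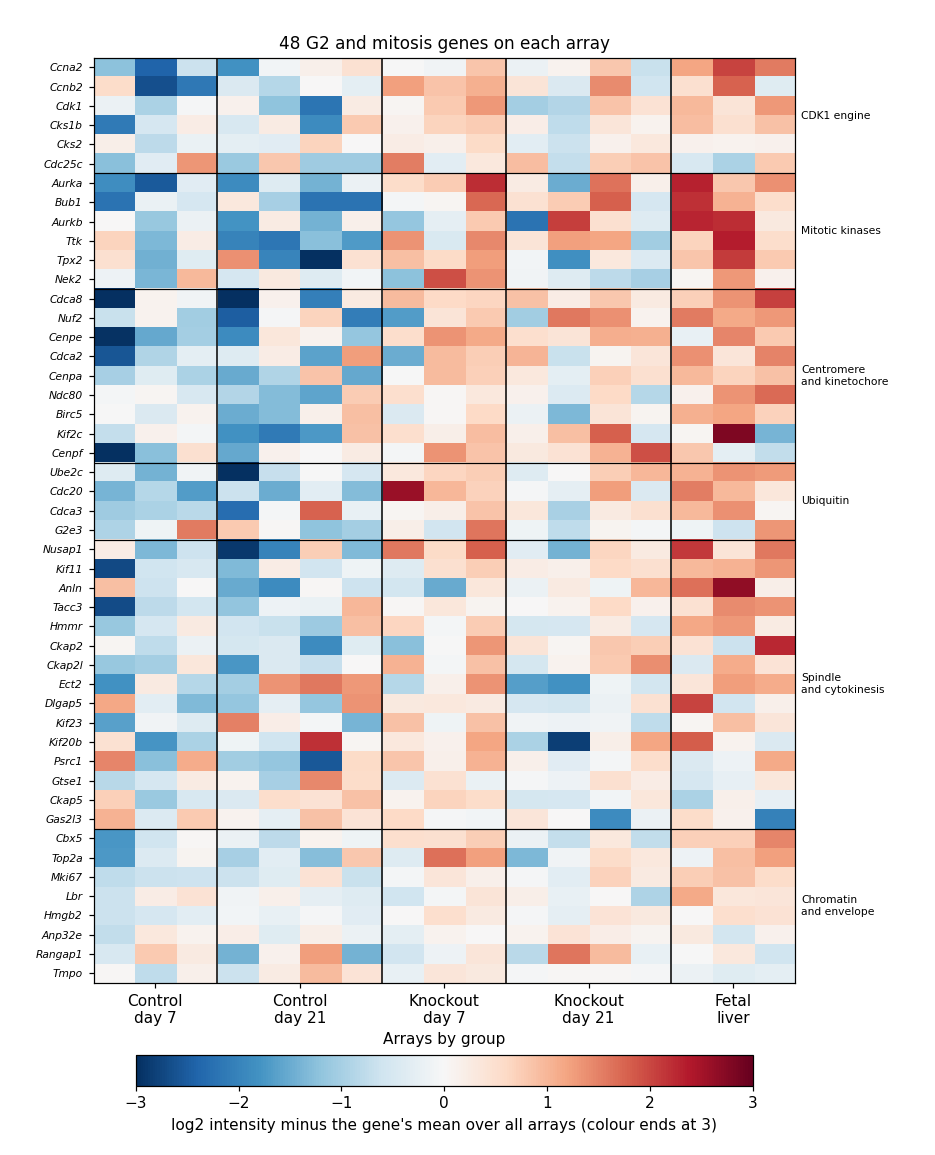
Log2 intensity of each of the 48 genes (rows, by role) on each array (columns, by group) minus the gene's mean over all 17 arrays, with the colour ending at a difference of 3 in either direction. Most rows are blue in the control groups and red in the fetal and day 7 knockout groups, and Gas2l3, Tmpo and Anp32e show little of this pattern.

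Of the 6 comparisons made, fetal against adult control HSCs was the one with calls. In fetal liver 7 members rose: Mki67, Ccna2, Cdc20, Kif11, Cbx5, Aurka and Tacc3, by 1.22 to 2.76 on the log2 scale (limma, adjusted p under 0.05); 0 fell. Among all genes tested 1.88% rose and 1.77% fell, so 7 of 48 stood above that background. By mean intensity 46 of the 48 were brighter than the median gene, so shares over all genes are not matched for brightness. Among the 8392 brighter genes 187 rose and 294 fell in fetal liver, and 10 members rose there. The median difference of those brighter genes was 0.07 in fetal liver, 0.09 for the knockout at day 7 and 0.15 at day 21. The difference was positive for 43 of 48 genes (all genes 52.0%), with a median of 1.28 (all genes 0.02), and 28 were higher at an unadjusted p under 0.05 (all genes 10.0%) and 0 lower (all genes 6.77%). The 3 fetal arrays lay above all 7 control arrays for 13 genes (all genes 3.37%) and below them for 0 (all genes 2.68%). The count of calls turned on single arrays: it was 0 without fetal array 2 and 4 without fetal array 3, and 1 when only the arrays compared were fitted. The median difference ran from 1.15 to 1.49 when each array was left out in turn. With only the arrays compared, the call was kept for Cdc20 and lost for the other 6. Array weights ended the calls of Cdc20, Cbx5, Aurka and Tacc3, and the share of genes at the floor as a covariate those of Kif11, Cbx5, Aurka and Tacc3.

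At day 7, the knockout HSCs had higher values than control HSCs for most of the list, but no member passed the test. The difference was positive for 44 of 48 genes (all genes 50.0%), and its median was 0.98 (all genes 0.00). Called genes numbered 0 among members and 0 among all genes (0% in each direction, limma); at an unadjusted p under 0.05, 14 members were higher (all genes 3.74%) and 0 lower (all genes 2.98%). The knockout and control arrays did not overlap for 19 members that were higher in the knockout (all genes 7.48%) and for 0 that were lower (all genes 6.39%). The smallest adjusted p was 0.312. Leaving out the third knockout array, which carried the highest mean of all 17 arrays, left 39 genes with a positive difference, a median of 0.79 and 19 genes apart (all genes 10.9%). Without the first control array, the counts were 42 and 23 (all genes 12.3%).

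At day 21 most members were again higher in the knockout, and none passed the test. Differences were positive for 37 of 48 genes (all genes 50.2%), with a median of 0.40 (all genes 0.00). Members called were 0 (all genes 0.0179% higher and 0% lower, limma), and at an unadjusted p under 0.05 there were 7 higher (all genes 6.12%) and 1 lower (all genes 3.95%). For 4 genes, Ttk, Cenpe, Ckap2 and Cenpf, the arrays did not overlap, with the knockout higher (all genes 3.14%); for 0 it was lower without overlap (all genes 2.35%). The smallest adjusted p was 0.254. The median was 0.25 without knockout array 3 and 0.71 without control array 4. When each array was centred on its own median, the median over all genes moved to -0.13 at day 7 and -0.20 at day 21, and that over the members to 0.85 and 0.20; centring shifts all genes of a comparison by the same amount.

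**Figure D3:**
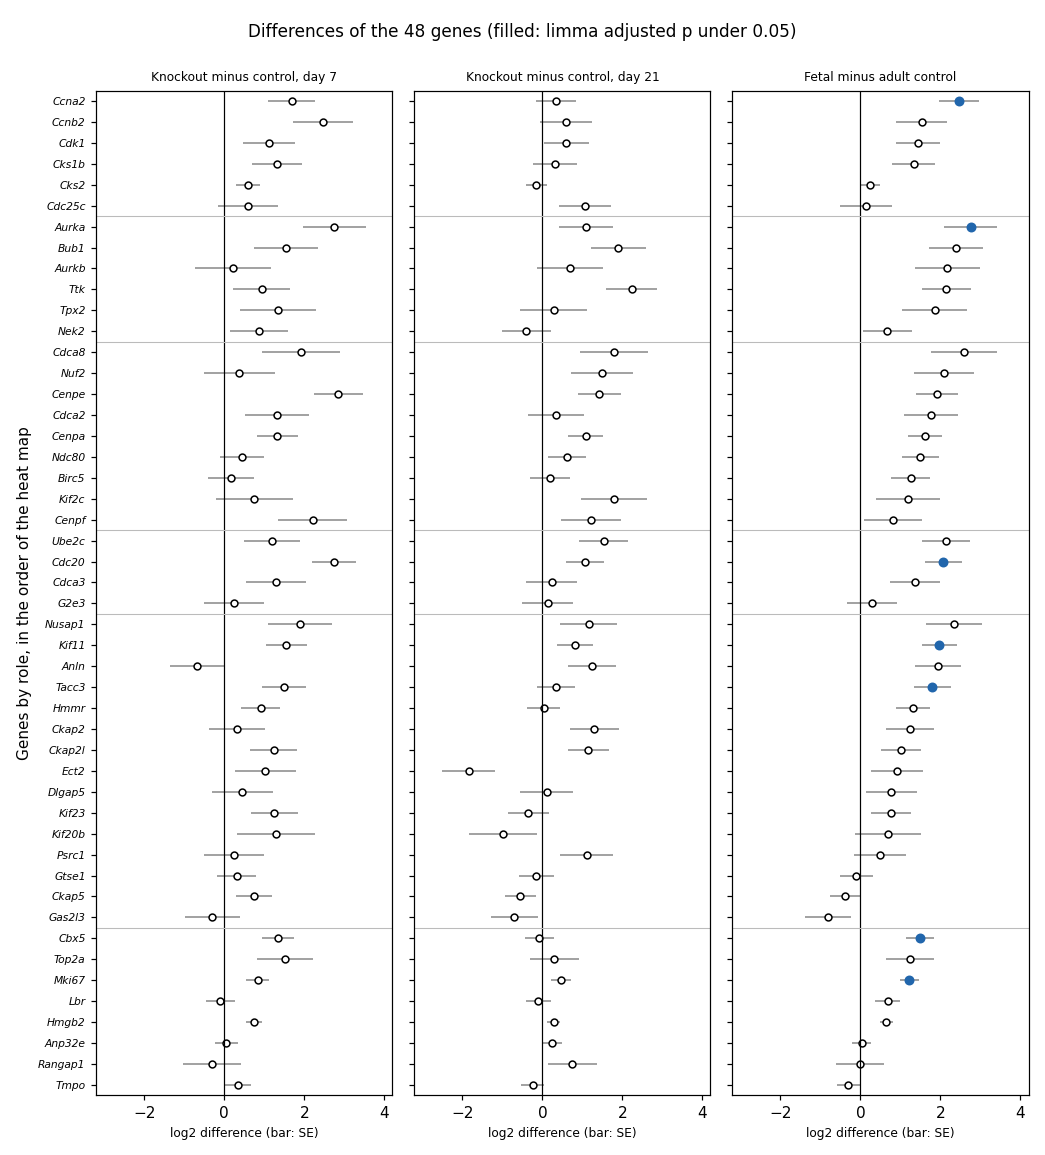
Log2 difference (x axis, bar: SE) of each of the 48 genes (y axis, by role) for knockout against control at day 7 and day 21 and for fetal liver against both adult control groups; filled points have a limma adjusted p under 0.05. The 7 filled points are all in the fetal panel, at 1.22 to 2.76, and medians are 0.98, 0.40 and 1.28 from left to right.

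The CDK1 engine comprised Cdk1, Ccna2, Ccnb2, Cks1b, Cks2 and Cdc25c: the mitotic kinase, its cyclins, its small adaptor subunits and the phosphatase that activates it. Differences were positive for 6 of 6 in fetal liver (median 1.39, 1 called higher against 1.88% of all genes). They were positive for 6 of 6 at day 7 (median 1.22, 0 called) and for 5 of 6 at day 21 (median 0.46, 0 called). Of all genes, 0% were called higher at day 7 and 0.0179% at day 21, here and for the gene groups that follow.
Ccna2 intensity was 329, 146 and 497 on the day 7 control arrays and 221, 734, 861 and 1074 on the day 21 control arrays. Knockout arrays gave Ccna2 values of 773, 724 and 1389 at day 7 and 688, 829, 1359 and 492 at day 21, and fetal arrays 1756, 3186 and 2285. All 3 fetal arrays exceeded all adult arrays, and day 7 knockout arrays exceeded their controls. Ccna2, cyclin A2, rose in fetal liver by 2.47 (SE 0.50, adjusted p = 0.0134); without fetal array 2 the adjusted p was 0.0726. At day 7 the difference was 1.68 (SE 0.59, adjusted p = 0.604), and at day 21 0.34 (SE 0.51, adjusted p = 0.87), where groups overlapped.
Ccnb2 intensity was 539, 59.6 and 83.8 on the day 7 control arrays and 276, 203, 374 and 300 on the day 21 control arrays. Knockout arrays gave Ccnb2 values of 865, 673 and 781 at day 7 and 481, 275, 992 and 244 at day 21, and fetal arrays 513, 1256 and 290. Control array 1 of day 7, at 539, stood far above the other day 7 controls, and the day 7 knockout arrays were above all 7 control arrays. For Ccnb2, cyclin B2, the difference was 2.47 (SE 0.75, adjusted p = 0.508) for the day 7 knockout and 1.53 (SE 0.63, adjusted p = 0.23) in fetal liver, where the groups overlapped.
Cdk1 intensity was 243, 141 and 265 on the day 7 control arrays and 297, 119, 59.8 and 326 on the day 21 control arrays. Knockout arrays gave Cdk1 values of 286, 473 and 675 at day 7 and 134, 149, 491 and 367 at day 21, and fetal arrays 534, 356 and 674. Fetal values were above all control values, those of the day 7 knockout were above the controls of that day, and those of the day 21 knockout were spread from 134 to 491. Cdk1, the kinase that drives entry into mitosis, differed by 1.45 (SE 0.55, adjusted p = 0.18) in fetal liver. Its day 7 knockout difference was 1.11 (SE 0.65, adjusted p = 0.839), and that of day 21 was 0.60 (SE 0.56, adjusted p = 0.755). Cks1b differed by 1.33 (SE 0.54, adjusted p = 0.215) in fetal liver, and Cks2 and Cdc25c by only 0.24 and 0.14, with overlapping groups.

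The mitotic kinases and their activators were Aurka, Aurkb, Bub1, Ttk, Nek2 and Tpx2. All 6 had positive differences in fetal liver (median 2.16, 1 called higher against 1.88% of all genes). All 6 were also positive at day 7 (median 1.14, 0 called), and 5 of 6 at day 21 (median 0.89, 0 called).
Aurka intensity was 41.5, 26.6 and 120 on the day 7 control arrays and 41.1, 117, 57.2 and 135 on the day 21 control arrays. Knockout arrays gave Aurka values of 222, 258 and 703 at day 7 and 180, 54.3, 469 and 168 at day 21, and fetal arrays 756, 267 and 391. No fetal or day 7 knockout array overlapped a control array, while knockout array 2 of day 21 fell among the controls. Aurka, the centrosomal Aurora kinase, rose in fetal liver by 2.76 (SE 0.66, adjusted p = 0.0355). That call was lost without any 1 of 7 arrays, the 3 fetal arrays among them, with adjusted p of 0.0509 to 0.138; the others were control arrays 1 and 2 of day 7 and 1 and 3 of day 21. The day 7 difference was 2.75 (SE 0.78, adjusted p = 0.491) and the day 21 difference 1.09 (SE 0.68, adjusted p = 0.632). With the mean over both its probe sets, of which 1 was dim, the fetal difference was 1.33 and the day 7 difference 1.40.
Ttk intensity was 119, 29.6 and 87.2 on the day 7 control arrays and 18.7, 16.7, 31.3 and 23 on the day 21 control arrays. Knockout arrays gave Ttk values of 190, 54.7 and 205 at day 7 and 97.8, 177, 171 and 36.6 at day 21, and fetal arrays 119, 382 and 108. Day 21 control arrays were all at or below 31.3, below every knockout array of that day. Ttk, also known as Mps1 and needed for the spindle checkpoint, had the smallest p of the members at day 21, with 2.23 (SE 0.63, adjusted p = 0.254). In day 21 against day 7 controls it was -1.63 (SE 0.68, adjusted p = 0.58), so its low day 21 control values enter both differences. The mean over its probe sets gave 1.20 and -0.78.
Bub1 intensity was 16, 64.5 and 52.2 on the day 7 control arrays and 93, 37.1, 16 and 16 on the day 21 control arrays. Knockout arrays gave Bub1 values of 71.3, 77.8 and 244 at day 7 and 102, 126, 257 and 52.1 at day 21, and fetal arrays 341, 154 and 107. Of the control arrays 3 lay at the floor of 16, where a value is only an upper bound. Bub1, a kinase of the spindle checkpoint, differed by 1.90 (SE 0.69, adjusted p = 0.366) at day 21, where the groups overlapped, and by 2.39 (SE 0.68, adjusted p = 0.0728) in fetal liver, where they did not. The day 21 value was 1.12 with the mean over its probe sets. The other 3 differed by 0.67 (Nek2) to 2.17 (Aurkb) in fetal liver, and at day 21 Nek2 was at -0.40.

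Centromere and kinetochore genes, which link chromosomes to spindle microtubules, were Birc5, Cdca2, Cdca8, Cenpa, Cenpe, Cenpf, Kif2c, Ndc80 and Nuf2. All 9 had positive differences in each of the 3 comparisons, with medians of 1.61 in fetal liver, 1.32 at day 7 and 1.21 at day 21. In each of them 0 were called (all genes 1.88%, 0% and 0.0179% higher). At an unadjusted p under 0.05, 7 were higher in fetal liver (all genes 10.0%), 3 at day 7 (all genes 3.74%) and 2 at day 21 (all genes 6.12%).
Cenpe intensity was 16, 43.6 and 61.5 on the day 7 control arrays and 34, 159, 134 and 56.1 on the day 21 control arrays. Knockout arrays gave Cenpe values of 182, 321 and 277 at day 7 and 179, 165, 267 and 262 at day 21, and fetal arrays 107, 345 and 217. Knockout arrays were above their controls at both days, and the lowest fetal value, 107, was below control arrays 2 and 3 of day 21. Cenpe, the kinesin that moves chromosomes to the spindle equator, differed by 2.85 (SE 0.62, adjusted p = 0.349) at day 7 (95% interval 1.52 to 4.18); without control array 1, which lay at the floor, it was 2.29. It was 1.42 (SE 0.54, adjusted p = 0.388) on day 21, against 1.92 (SE 0.52, adjusted p = 0.0621) in fetal liver, and the mean over its probe sets gave 0.89 at day 21.
Cenpa intensity was 149, 233 and 154 on the day 7 control arrays and 105, 159, 542 and 104 on the day 21 control arrays. Knockout arrays gave Cenpa values of 299, 574 and 487 at day 7 and 373, 245, 493 and 420 at day 21, and fetal arrays 591, 473 and 549. Control array 3 of day 21, at 542, was above all knockout arrays of that day, and the others of its group were at or below 159. Cenpa, the histone variant that marks centromeres, differed by 1.08 (SE 0.44, adjusted p = 0.437) at day 21, by 1.32 (SE 0.51, adjusted p = 0.665) at day 7 and by 1.61 (SE 0.43, adjusted p = 0.0577) in fetal liver. Without control array 3 of day 21 the day 21 value was 1.63, with an adjusted p of 0.0751, and with the mean over its probe sets it was 0.68.
Cenpf intensity was 18, 100 and 330 on the day 7 control arrays and 82.3, 262, 238 and 284 on the day 21 control arrays. Knockout arrays gave Cenpf values of 229, 602 and 430 at day 7 and 290, 322, 489 and 915 at day 21, and fetal arrays 417, 194 and 143. Its lowest and highest arrays were in control day 7 and knockout day 21. Cenpf, a kinetochore and nuclear matrix protein, differed by 1.21 (SE 0.75, adjusted p = 0.632) at day 21, where groups did not overlap, and by -0.89 (SE 0.73, adjusted p = 0.652) between fetal and knockout HSCs, where they did; the latter was -0.56 without fetal array 3. Kif2c intensity was 48.2, 86.6 and 76.1 on the day 7 control arrays and 22.3, 18.1, 24 and 146 on the day 21 control arrays. Knockout arrays gave Kif2c values of 113, 88.9 and 150 at day 7 and 87.4, 148, 275 and 56.1 at day 21, and fetal arrays 82.3, 550 and 30.2. Fetal array 2 was the highest of all arrays and fetal array 3 was among the low ones, so the fetal group overlapped every adult group. Kif2c, which depolymerizes microtubules at centromeres, differed by 1.79 (SE 0.83, adjusted p = 0.498) at day 21, by 2.48 without control array 4, and by 1.04 with the mean over its probe sets.

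Ubiquitin genes were Cdc20, Ube2c, Cdca3 and G2e3. All 4 had positive differences in fetal liver (median 1.72, 1 called higher against 1.88% of all genes). All 4 were also positive at day 7 (median 1.24, 0 called) and at day 21 (median 0.65, 0 called).
Cdc20 intensity was 92.8, 134 and 76.6 on the day 7 control arrays and 156, 87, 197 and 99.4 on the day 21 control arrays. Knockout arrays gave Cdc20 values of 1481, 488 and 393 at day 7 and 240, 202, 587 and 181 at day 21, and fetal arrays 707, 479 and 311. Fetal and day 7 knockout arrays were above all 7 control arrays, and the highest value, 1481, was on knockout array 1 of day 7. Cdc20, the activator of the anaphase-promoting complex, rose in fetal liver by 2.07 (SE 0.46, adjusted p = 0.0238). The call was lost without fetal array 1 (adjusted p = 0.102), fetal array 2 (adjusted p = 0.0839) or control array 3 of day 7 (adjusted p = 0.0513). Its day 7 knockout difference, 2.74 (SE 0.54, adjusted p = 0.312), had the smallest p of the members, with a 95% interval of 1.57 to 3.91 and adjusted p of 0.135 to 0.451 over the alternatives. At day 21 it was 1.07 (SE 0.47, adjusted p = 0.476), and the groups overlapped; without knockout array 3 it was 0.69.
Ube2c intensity was 1396, 681 and 1683 on the day 7 control arrays and 154, 1133, 1796 and 1277 on the day 21 control arrays. Knockout arrays gave Ube2c values of 2251, 2822 and 3012 at day 7 and 1401, 1821, 3030 and 3648 at day 21, and fetal arrays 3720, 4598 and 4433. The fetal arrays were above all 14 adult arrays, and control array 1 of day 21 was far below the others of its group. Ube2c, the ubiquitin-conjugating enzyme of the anaphase-promoting complex, differed by 2.13 (SE 0.60, adjusted p = 0.0701) in fetal liver and by 1.53 (SE 0.61, adjusted p = 0.425) at day 21; without that control array the day 21 value was 0.75. Cdca3 differed by 1.37 in fetal liver and 1.29 at day 7. G2e3 differed by 0.13 to 0.29 in the 3 comparisons, with overlapping groups.

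Of the 15 spindle and cytokinesis genes, 12 had positive differences in fetal liver (median 0.91, 2 called higher against 1.88% of all genes). At day 7, 13 were positive (median 0.91, 0 called), and at day 21, 9 (median 0.11, 0 called).
Kif11 intensity was 70.7, 307 and 331 on the day 7 control arrays and 185, 539, 311 and 423 on the day 21 control arrays. Knockout arrays gave Kif11 values of 354, 653 and 780 at day 7 and 545, 516, 702 and 648 at day 21, and fetal arrays 906, 956 and 1161. Fetal arrays were above all 14 adult arrays. Kif11, the kinesin that pushes spindle poles apart, rose in fetal liver by 1.97 (SE 0.44, adjusted p = 0.0255), and leaving out any fetal array ended the call (adjusted p = 0.057, 0.0802 and 0.0932). At day 7 its knockout difference was 1.55 (SE 0.52, adjusted p = 0.573), and 0.83 without control array 1, which was low at 70.7.
Tacc3 intensity was 71.2, 265 and 310 on the day 7 control arrays and 201, 411, 394 and 906 on the day 21 control arrays. Knockout arrays gave Tacc3 values of 468, 577 and 480 at day 7 and 456, 487, 687 and 496 at day 21, and fetal arrays 619, 1222 and 1151. Control array 4 of day 21, at 906, was above the lowest fetal array. Tacc3, which stabilizes spindle microtubules with its partner Ckap5, rose in fetal liver by 1.80 (SE 0.47, adjusted p = 0.0492); the call was lost without any 1 of 7 arrays (adjusted p of 0.053 to 0.173): fetal 2 and 3, control 1 and 2 of day 7, and control 1, 2 and 3 of day 21. Tacc3 differed between control days by 1.20 (SE 0.51, adjusted p = 0.592), by 0.53 without control array 1 of day 7, and by 0.15 with the mean over its probe sets; that mean also ended the fetal call, at 1.37 (adjusted p = 0.156).
Ckap5 intensity was 1055, 297 and 462 on the day 7 control arrays and 477, 932, 869 and 1193 on the day 21 control arrays. Knockout arrays gave Ckap5 values of 694, 1027 and 940 at day 7 and 447, 452, 607 and 813 at day 21, and fetal arrays 333, 715 and 546. The groups overlapped in all 3 comparisons. Ckap5, the microtubule polymerase, differed by -0.38 (SE 0.38, adjusted p = 0.692) in fetal liver, by 0.74 (SE 0.45, adjusted p = 0.843) at day 7, with -0.55 (SE 0.39, adjusted p = 0.669) for day 21, where the mean over its probe sets gave -0.19.
Ect2 intensity was 16, 68.3 and 31.2 on the day 7 control arrays and 27.8, 145, 170 and 139 on the day 21 control arrays. Knockout arrays gave Ect2 values of 31.6, 62.6 and 145 at day 7 and 17.9, 16, 51.8 and 38.9 at day 21, and fetal arrays 73, 136 and 122. Of 17 arrays, 4 stood below 30, and array 1 of the day 7 controls and array 2 of the day 21 knockout lay at the floor. Ect2, the exchange factor that activates RhoA for cytokinesis, was the one member lower at an unadjusted p under 0.05 in a knockout comparison, with -1.84 (SE 0.66, adjusted p = 0.359) at day 21. The same gene was at 1.02 (SE 0.76, adjusted p = 0.883) at day 7 and at 1.61 (SE 0.71, adjusted p = 0.607) between control days, where 3 of the 4 day 21 controls read 139 to 170.
Anln intensity was 146, 50.6 and 78.3 on the day 7 control arrays and 27.1, 20.9, 79.2 and 50.8 on the day 21 control arrays. Knockout arrays gave Anln values of 52.9, 27.3 and 97.9 at day 7 and 69.1, 93.8, 70.5 and 154 at day 21, and fetal arrays 243, 495 and 87.1. Its knockout difference was -0.68 (SE 0.68, adjusted p = 0.926) on day 7, against 1.24 (SE 0.59, adjusted p = 0.509) at day 21, and groups overlapped at both; the day 7 value ran from -1.13 to -0.21 when each array was left out in turn. Anln, anillin, the scaffold of the contractile ring, was 1.94 (SE 0.58, adjusted p = 0.0838) in fetal against control HSCs.
Gas2l3 intensity was 453, 165 and 377 on the day 7 control arrays and 236, 182, 407 and 292 on the day 21 control arrays. Knockout arrays gave Gas2l3 values of 334, 216 and 210 at day 7 and 285, 224, 59.2 and 196 at day 21, and fetal arrays 324, 243 and 54.2. Fetal array 3 and knockout array 3 of day 21 were the low arrays, and all groups overlapped. Gas2l3, which links actin and microtubules, had a negative difference in each of the 3 comparisons, -0.81 (SE 0.57, adjusted p = 0.526) in fetal liver, -0.30 (SE 0.68, adjusted p = 1) at day 7, with -0.70 (SE 0.59, adjusted p = 0.719) for day 21. None of these passed the test, and without the low array the fetal value was -0.02 and the day 21 value -0.20. Ckap2l intensity was 223, 240 and 615 on the day 7 control arrays and 146, 359, 302 and 494 on the day 21 control arrays. Knockout arrays gave Ckap2l values of 1003, 467 and 903 at day 7 and 340, 524, 841 and 1280 at day 21, and fetal arrays 361, 1055 and 644. Ckap2l, a spindle pole protein, differed by 1.15 (SE 0.51, adjusted p = 0.481) at day 21 with overlapping groups, and by 0.67 with the mean over its probe sets. Nusap1, Hmmr, Ckap2, Dlgap5, Kif23, Kif20b, Psrc1 and Gtse1 ranged from -0.10 (Gtse1) to 2.34 (Nusap1) in fetal liver and from -0.98 (Kif20b) to 1.30 (Ckap2) at day 21.

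Genes of chromatin and the nuclear envelope were Mki67, Top2a, Hmgb2, Cbx5, Anp32e, Tmpo, Lbr and Rangap1. Of 8, 6 had positive differences in fetal liver (median 0.67, 2 called higher against 1.88% of all genes). At day 7, 6 were positive (median 0.54, 0 called), and at day 21, 5 (median 0.26, 0 called).
Mki67 intensity was 1502, 1628 and 1647 on the day 7 control arrays and 1637, 1981, 3427 and 1607 on the day 21 control arrays. Knockout arrays gave Mki67 values of 2459, 3263 and 2820 at day 7 and 2466, 2047, 4133 and 3044 at day 21, and fetal arrays 4244, 4681 and 3738. The day 7 controls were close together, from 1502 to 1647, and the fetal arrays were above all 7 control arrays. Mki67, the Ki-67 antigen used to mark cycling cells, rose in fetal liver by 1.22 (SE 0.24, adjusted p = 0.0122), the smallest p of the members in that comparison; without fetal array 2 the adjusted p was 0.0629. It differed by 0.83 (SE 0.28, adjusted p = 0.594) at day 7, where groups did not overlap, and by 0.46 (SE 0.25, adjusted p = 0.583) at day 21, where they did.
Cbx5 intensity was 212, 474 and 732 on the day 7 control arrays and 628, 412, 774 and 648 on the day 21 control arrays. Knockout arrays gave Cbx5 values of 1010, 1000 and 1187 at day 7 and 636, 435, 885 and 428 at day 21, and fetal arrays 1170, 1177 and 1983. Fetal and day 7 knockout arrays were above all control arrays, and day 21 knockout arrays overlapped their controls. Cbx5, the heterochromatin protein HP1 alpha, rose in fetal liver by 1.48 (SE 0.35, adjusted p = 0.0328); without any 1 fetal array the call was lost (adjusted p = 0.0528, 0.0701 and 0.139). The knockout difference was 1.34 (SE 0.41, adjusted p = 0.508) on day 7, against -0.08 (SE 0.36, adjusted p = 0.98) at day 21. The day 7 value was 0.85 without control array 1, which was low at 212, and 0.70 with the mean over its probe sets.
Hmgb2 intensity was 2200, 2428 and 2770 on the day 7 control arrays and 3228, 2939, 3330 and 2703 on the day 21 control arrays. Knockout arrays gave Hmgb2 values of 3435, 4891 and 4159 at day 7 and 3358, 2840, 4562 and 4213 at day 21, and fetal arrays 3478, 4853 and 4662. Fetal and day 7 knockout arrays were all above all 7 control arrays. Hmgb2, a DNA-bending chromatin protein, differed by 0.75 (SE 0.20, adjusted p = 0.453) on day 7, against 0.65 (SE 0.17, adjusted p = 0.0533) in fetal liver, without overlap in either. The mean over its 3 probe sets, of which 1 was dim, gave 0.19 at day 7. In fetal liver that mean gave 0.93 (limma adjusted p = 0.0366), which was a call. The fetal difference of Hmgb2 was also called after quantile normalization (0.0415), with trended and robust eBayes (0.0389) and without fetal array 1 (0.0306). It was not called in the other alternatives. Top2a intensity was 106, 264 and 371 on the day 7 control arrays and 175, 280, 145 and 617 on the day 21 control arrays. Knockout arrays gave Top2a values of 268, 1103 and 822 at day 7 and 137, 326, 511 and 439 at day 21, and fetal arrays 314, 657 and 829. Array 1 of the day 7 knockout, the day 21 knockout and fetal liver was in each case the lowest of its group. Top2a, the topoisomerase that untangles replicated chromosomes, differed by 1.23 (SE 0.60, adjusted p = 0.32) in fetal liver, 1.52 (SE 0.70, adjusted p = 0.742) at day 7, against 0.30 (SE 0.61, adjusted p = 0.922) at day 21. Tmpo and Lbr, which hold chromatin to the inner nuclear membrane, differed by -0.30 (SE 0.28, adjusted p = 0.66) and 0.68 (SE 0.31, adjusted p = 0.274) in fetal liver. Tmpo read 562 to 632 in fetal liver and 426 to 1394 in controls, and its fetal difference was 0.45 when averaged over all its probe sets. Rangap1, which activates the Ran GTPase, was at -0.31 (SE 0.72, adjusted p = 1) at day 7 and -0.01 in fetal liver, and Anp32e, a histone chaperone, at 0.05 and 0.03.

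**Figure D4:**
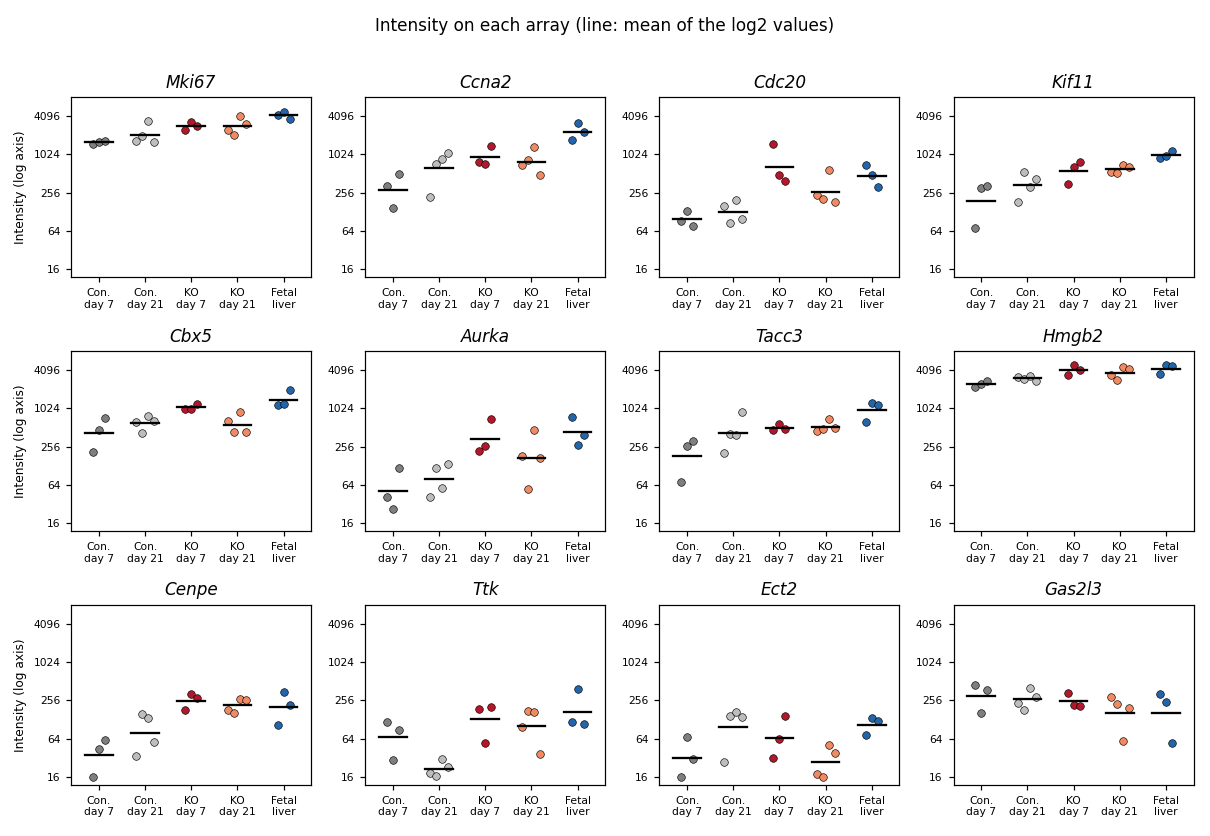
Deposited intensity (y axis, log scale) of 12 of the 48 genes on each array, by group (x axis), with the mean of the log2 values as a line. Mki67, Ccna2, Cdc20, Kif11, Cbx5 and Aurka have all 3 fetal arrays above all 7 control arrays; in Ect2 the day 21 controls reach 170 and the day 21 knockouts 51.8.

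The day 21 difference minus the day 7 difference compares the knockout effects directly. It was positive for 14 of 48 genes (all genes 49.8%) and negative for 34, with a median of -0.49, and 0 were called (0% of all genes in each direction, limma); at an unadjusted p under 0.05, 4 members were lower (all genes 1.88%) and 0 higher (all genes 2.63%). The 4 were Ect2 at -2.87 (SE 1.01, adjusted p = 1), Cbx5 at -1.42 (SE 0.54, adjusted p = 1), Cdc20 at -1.67 (SE 0.72, adjusted p = 1) and Ckap5 at -1.29 (SE 0.60, adjusted p = 1). Cbx5 was at -0.93 without control array 1 of day 7 and at -0.35 with the mean over its probe sets, and Cdc20 at -1.08 without knockout array 1 of day 7. The smallest p in the other direction were those of Anln at 1.91 (SE 0.90), Ttk at 1.30 (SE 0.96) and Rangap1 at 1.06 (SE 0.95). No difference between the days passed the test for any member. Control HSCs of day 21 and day 7 gave differences balanced around 0: 26 of 48 were positive (all genes 48.2%), the median was 0.04, and 0 were called (all genes 0% higher and 0.0298% lower, limma). At an unadjusted p under 0.05, Tacc3 and Ect2 were higher (all genes 3.28%) and Ttk lower (all genes 4.77%). Next in order were Cenpe at 1.19 (SE 0.58, adjusted p = 0.64), Psrc1 at -1.48 (SE 0.71, adjusted p = 0.637) and Anln at -1.10 (SE 0.64, adjusted p = 0.698). For 0 members did the control groups separate, with day 21 higher (all genes 2.75%) or lower (all genes 3.38%).

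Fetal against knockout HSCs gave smaller differences than fetal against control HSCs, and the fetal arrays are shared between these comparisons. The difference was positive for 36 of 48 genes (all genes 50.9%), with a median of 0.52, and 0 were called (all genes 1.20% higher and 1.34% lower, limma). At an unadjusted p under 0.05, 6 were higher (all genes 7.80%) and 0 lower (all genes 6.64%), and for 4 genes, Ccna2, Birc5, Kif11 and Ube2c, all fetal arrays were above all knockout arrays (all genes 3.70%), while for 0 they were below them (all genes 3.53%). The smallest p were those of Ccna2 at 1.46 (SE 0.50, adjusted p = 0.166), Anln at 1.66 (SE 0.58, adjusted p = 0.176) and Lbr at 0.78 (SE 0.31, adjusted p = 0.24). Lowest in fetal liver relative to knockout, by the same rule, were Tmpo at -0.35 (SE 0.28, adjusted p = 0.638), Ckap5 at -0.47 (SE 0.38, adjusted p = 0.65) and Cenpf. The knockout comparisons and the fetal against control comparison share control arrays, so their values are set side by side and no overlap between them is drawn.

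The members varied together to different degrees. Pearson's r of a member with the mean of the other members over the 17 arrays had a median of 0.58, from 0.92 for Aurka, 0.85 for Ccna2 and 0.82 for Kif11 and Ube2c down to 0.04 for Anp32e and -0.39 for Gas2l3; 15 members exceeded 0.7. With group means removed the median was 0.34, and that of Cdc20 was -0.17 against 0.67 before. Arrays share scaling and the groups differ, so these values describe the 17 arrays. The other probe sets of the same genes gave another reading, fitted over all probe sets: 67 were above the floor on at least 1 array. Their direction matched that of the chosen probe set for 57 at day 7, 43 at day 21 and 55 in fetal liver, and 7 of them were called higher in fetal liver (all probe sets 1.70%). Another probe set of Ccna2 differed by 2.76 (SE 0.52, adjusted p = 0.00909) in fetal liver and by 2.15 (SE 0.53, adjusted p = 0.205) at day 21, where the chosen one gave 0.34, so the probe sets of this gene disagree on size there. Another of Kif11 differed by 2.35 (SE 0.38, adjusted p = 0.00359) in fetal liver. The dim second probe set of Aurka, mean intensity 21.7, was at -0.11 in fetal liver.

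A further list of mitotic genes was counted in the same way. Of 45 measured of 46, 37 had positive differences in fetal liver (all genes 52.0%; median 1.15), where 5 were called higher (all genes 1.88%) and 1 lower (all genes 1.77%). At day 7, 40 were positive (all genes 50.0%; median 0.82, 0 called), and at day 21, 30 (all genes 50.2%; median 0.43, 0 called). Plk1, the polo kinase, read 628, 661 and 194 on fetal arrays and 39.8 to 105 on the 7 control arrays, and rose by 2.60 (SE 0.39, adjusted p = 0.00159). Aspm, a spindle pole protein, and the condensin subunits Ncapd2, Ncaph and Smc2 rose by 3.12, 2.07, 1.84 and 2.55 (adjusted p = 0.018, 0.00557, 0.0072 and 0.0215). Zwint, a kinetochore protein, fell in fetal liver by 1.29 (SE 0.24, adjusted p = 0.0072). Of 33 genes that control G2 and mitosis, 2 were called in fetal liver, both lower (all genes 1.77%). Cdkn1a, which encodes the CDK inhibitor p21, read 1902 to 2186 on day 7 control arrays, 1007 to 1523 on day 21 control arrays and 111 to 259 on fetal arrays, and fell by 3.43 (SE 0.29, adjusted p = 1.3e-05). It read 433, 671 and 577 on day 7 knockout arrays, all below their controls, a difference of -1.87 (SE 0.34, adjusted p = 0.268), and at day 21 it was at -0.09 (SE 0.29, adjusted p = 0.963). Cdkn1b, p27, fell in fetal liver by 1.27 (SE 0.26, adjusted p = 0.0154). Foxm1 differed by 1.22 (SE 0.39, adjusted p = 0.548) at day 7, 0.65 at day 21 and 1.01 in fetal liver, and Mybl2 by 0.27, -0.21 and 1.87; none of these passed the test.

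Marker genes of other cell types differed between some of these groups, and 0 were called in a knockout comparison. Of 15 measured erythroid markers, 14 had positive differences at day 7 (median 1.09, 0 called) and 14 at day 21 (median 1.38, 0 called). In fetal liver 14 were positive (median 1.79), and 8 were called higher (all genes 1.88%). At an unadjusted p under 0.05, 6 of them were higher at day 7 (all genes 3.74%) and 7 at day 21 (all genes 6.12%). The mean log2 level of erythroid markers was 6.78 to 6.84 on day 7 control arrays and 6.76 to 8.31 on day 21 control arrays. It was 7.56 to 8.45 on day 7 knockout arrays, 7.56 to 9.42 on day 21 knockout arrays and 8.99 to 9.43 on fetal arrays. Klf1, the erythroid transcription factor, read 29 to 70.2 on day 7 controls and 221 to 724 on day 7 knockouts, whereas the globin gene Hba-a1 read 21 to 42.1 on all arrays; 0 of the 15 lay at the floor throughout a group. Control array 3 of day 21 stood apart from its group in these markers, with a mean log2 level of 8.31 against 6.76 to 7.43. The part of these markers in the results was not tested. Without that array and control array 1 of day 7, 41 members were positive in fetal liver and 19 apart from controls (all genes 5.62%), and 35 and 9 at day 21 (all genes 4.99%). Megakaryocyte markers had positive differences for 11 of 12 at day 21 (median 1.52), 9 at day 7 (median 0.48) and 4 in fetal liver (median -0.51). At day 21, 0 were called and 8 were higher at an unadjusted p under 0.05 (all genes 6.12%). In fetal liver 0 were called higher and 1 lower (all genes 1.77%). Their mean log2 level was 7.77 to 8.39 on day 21 knockout arrays and 6.59 to 7.01 on day 21 control arrays. For 7 of the 12, all knockout arrays of that day were above all its control arrays (all genes 3.14%). Gp6 read 16 to 19.5 on all arrays. The part of megakaryocyte markers in the results was not tested. Of 11 multipotent progenitor markers, 7 had positive differences at day 7 (median 0.29), 6 at day 21 (median 0.53) and 8 in fetal liver (median 0.87), and 0 were called in any of them. In fetal liver, 11 of 11 hepatocyte markers (3 called higher), 10 of 10 endothelial markers (5 called higher) and 9 of 11 macrophage markers (3 called higher) had positive differences. Of all genes 52.0% were positive in this comparison and 1.88% were called higher. The mean log2 level of hepatocyte markers was 6.00 on fetal array 1, within the 5.36 to 6.41 of adult arrays, and 8.95 and 8.47 on the other two. Endothelial markers were at 7.13 on fetal array 1 and at 9.38 and 10.06 on the other two, against 5.93 to 6.56 on adult arrays. Macrophage markers were at 6.19 to 6.99 on fetal and 4.56 to 5.57 on adult arrays, with Cd163 and Spic at the floor on all fetal arrays and Adgre1 at the floor on all adult arrays. The part of hepatocyte, endothelial and macrophage markers in the fetal result was not tested.

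**Figure D5:**
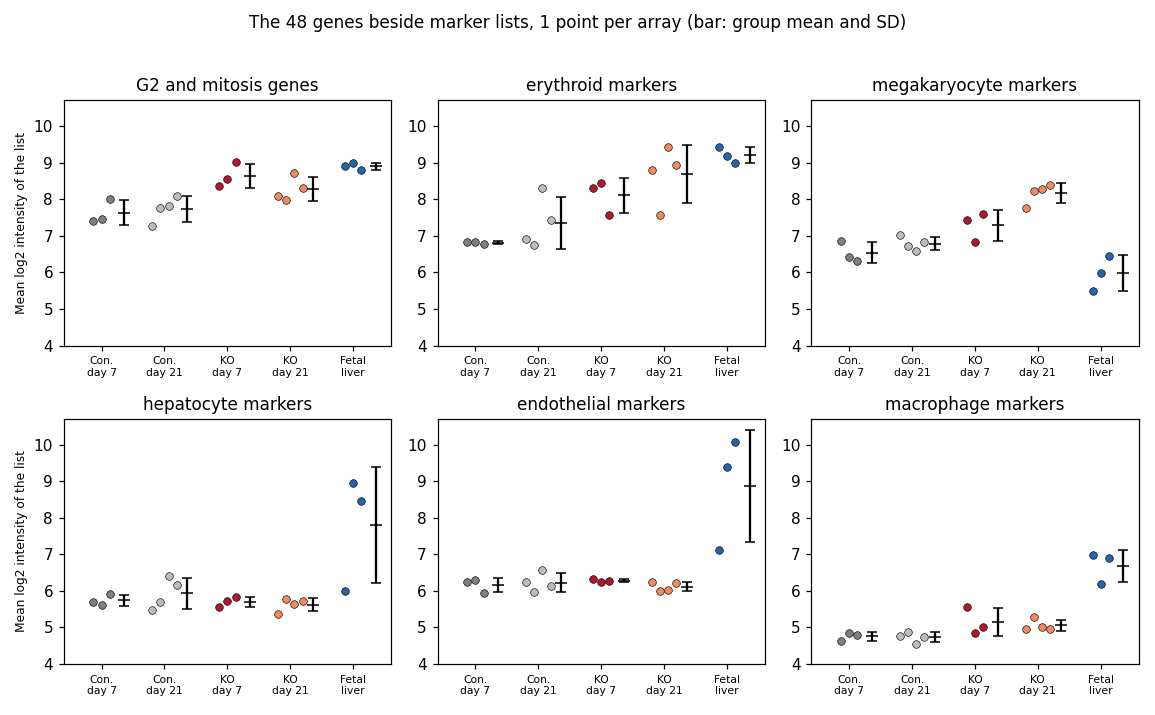
Mean log2 intensity (y axis) of the 48 G2 and mitosis genes and of 5 marker lists on each array, by group (x axis), with group mean and SD as a bar. Erythroid markers are high on fetal and most knockout arrays, and hepatocyte markers are high on 2 fetal arrays (8.95 and 8.47) and not on the third (6.00).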

How the data were processed

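The authors deposited 1 table of 17 Affymetrix arrays as linear intensity with a floor of 16, 45101 probe sets per array; RMA is named in the submitters' processing notes, with no version, and no source used here describes the scaling. Amplification with a Nugen kit is stated in the labels' protocols, and background correction and normalization are as deposited. Of 35890 annotated probe sets, 34958 name 1 gene and 932 several; 34754 matched RefSeq symbols. Log2 was taken because the files were linear, whereas the planned test assumed log2 values. All 17 arrays in 5 groups by title entered 1 fit in limma 3.58.1 (R 4.3.3; 12 residual and 1.5 prior degrees of freedom), with Benjamini-Hochberg adjustment over 16785 genes and calls at an adjusted p under 0.05. The fit was also run on simulated data with normal noise, no floor and changes added only to genes brighter than the median gene. That run cannot show how the test behaves for dim genes or values at the floor. The number of arrays limits precision. No array pair was identical, and correlations between arrays were 0.809 to 0.952.

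The members and lists were chosen with earlier results of these data known. Named genes were called members, the 8 with the smallest p among positive and the 3 among negative differences in the knockout and fetal against control comparisons, the 3 each way in the others, and Cdk1, Mki67 and Top2a; genes outside this rule were chosen after their values were seen. Alternatives were quantile normalization, centring, the mean over probe sets, a filter on dim genes, only the arrays compared, the replicate block, trended and robust eBayes, array weights and leaving out each array. A floor-share covariate, another choice of probe set, and leaving out 2 control arrays together or each array for the counts of genes higher or apart were added after seeing the data.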

Additional observations from a re-analysis of the deposited data

Results flagged for a closer look

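In groups of 4 arrays, 3 of 52 checks of a named member found 1 array far from the others, and chance gives about 1 in 20 such groups. In the day 21 controls, array 4 stood alone for Kif2c with a log2 intensity of 7.19, above the other arrays of that group. In the same group, array 1 stood alone and low for Ect2 at 4.80 and for Cenpf at 6.36.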

How the results depend on the processing

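In the knockout comparisons, the control comparison and fetal against knockout HSCs, 0 members were called under the alternatives run. The fetal count of 7 members called was 1 with only the arrays compared, 4 with array weights, 4 with the share of genes at the floor as a covariate (added after seeing the data), 10 among bright genes, and 0 to 9 when each array was left out in turn. The day 7 median of 0.98 was 0.64 with the mean over all probe sets. The sign turned for Gas2l3 at day 7 (0.32 with the floor covariate) and, with the mean over all probe sets, for Tmpo in fetal against control (0.45) and fetal against knockout HSCs (0.20). The cause was not tested. Over all genes, 316 rose and 297 fell in fetal liver; only the arrays compared gave 110 and 124, bright genes 187 and 294, and the floor covariate 187 and 220. The split was 261 and 324 after quantile normalization and 235 and 326 after centring.

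With the replicate number as a block, 9 members were called in fetal liver with a median of 1.40, and 0 in the other comparisons. Over 31 pairs of arrays with the same number the correlation of deviations was -0.04 to 0.08. Its median was 0 for pairs of the same number and 0 for other pairs. Of 17 arrays, 9 were closest to their own number. The count expected without pairing was not worked out, so these values do not settle whether the numbers pair the arrays. The main fit took no pairing. The few arrays per group limit what the tests could call, and values at the floor of 16 are upper bounds.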
